A study of Mus musculus with 6 samples.

Results

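The 8 enzymes that carry carbon from acetyl-CoA to farnesyl and geranylgeranyl diphosphate, ahead of squalene in the mevalonate pathway, were examined in mouse liver. They were chosen by gene symbol as Acat2, Hmgcs1, Mvk, Pmvk, Mvd, Idi1, Fdps and Ggps1, and all 8 were found among the 24421 genes of the authors' table. Hepatic mRNA of 6 male C57BL/6 mice (C57BL/6 J in the study's text) was sequenced, 3 of them WT and 3 *Pai-1*+/-, that is with a single working copy of the gene for plasminogen activator inhibitor-1 in every cell of the body. The labels give an age of 21 weeks, slightly above the age in the study's text, and free access to food. The study's text gives a standard chow (SC) diet, WT littermates as controls and no drug in either group.

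The study set the genotypes against each other to see whether changes in hepatic genes under a PAI-1 inhibitor also arise without the drug. That comparison was not made here. The deposited counts per animal are headed by numbers found in no sample label, which left their genotypes unknown, and the authors' own fold changes and p-values were not used. Each value is therefore the authors' mean over all libraries of both genotypes, named the mean normalized count below. It carries no error between mice, there is no test, and a difference between 2 genes is compared only with its movement under other ways of scaling. The mean also holds no check of the *Pai-1* allele.

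In this pathway, acetyl-CoA units are condensed to HMG-CoA, which is reduced to mevalonate, and mevalonate is phosphorylated and decarboxylated to the isoprene unit isopentenyl diphosphate. Joining of such units gives farnesyl diphosphate, which feeds sterol synthesis, and geranylgeranyl diphosphate, which is attached to small GTPases. In liver the genes of the pathway are known targets of the sterol regulatory element-binding proteins (SREBPs), membrane-bound factors that are released when sterols are scarce, and SREBPs act at promoters together with NF-Y and Sp1.

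The sequences upstream of 3 of these genes are shown because they differ in the letters those factors are known to favour. They are the 250 bases before the annotated start, 5′ to 3′ on the strand of the gene, from RefSeq on GRCm38.p6. Hmgcs1 lies on the plus strand at chr13:119690101-119690350, Acat2 on the minus strand at chr17:12960726-12960975 and Mvd on the minus strand at chr8:122443423-122443672. Capitals mark the sterol regulatory element core TCACNCCAC, its shorter form CACNCCAC and the NF-Y motif CCAAT, on either strand.
Hmgcs1: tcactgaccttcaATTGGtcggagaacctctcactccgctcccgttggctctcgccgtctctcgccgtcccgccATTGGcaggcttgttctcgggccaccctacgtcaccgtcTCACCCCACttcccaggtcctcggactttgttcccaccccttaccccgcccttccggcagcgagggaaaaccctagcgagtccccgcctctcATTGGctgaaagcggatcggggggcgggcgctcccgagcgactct
Acat2: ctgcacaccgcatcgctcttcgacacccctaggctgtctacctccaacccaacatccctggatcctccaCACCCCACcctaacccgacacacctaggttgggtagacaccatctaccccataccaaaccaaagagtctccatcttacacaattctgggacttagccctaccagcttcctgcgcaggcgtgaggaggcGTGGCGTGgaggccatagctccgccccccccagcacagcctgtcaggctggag
Mvd: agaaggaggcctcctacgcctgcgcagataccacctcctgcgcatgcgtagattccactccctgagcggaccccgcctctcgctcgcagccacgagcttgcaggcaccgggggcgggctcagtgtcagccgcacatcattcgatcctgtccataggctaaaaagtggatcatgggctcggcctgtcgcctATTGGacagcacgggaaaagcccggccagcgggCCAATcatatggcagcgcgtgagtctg
The Hmgcs1 sequence held the full core and 3 NF-Y motifs, the Acat2 sequence held the shorter form at 2 places and no NF-Y motif, and the Mvd sequence held 2 NF-Y motifs with neither form of the core.

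All 8 members were expressed above a mean normalized count of 10, the level that separates genes marked low in the table from the others. Their mean normalized counts sum to 13862, which is 0.0461% of the total of 30046000 over all genes. At this total, 1 count corresponds to 0.0333 CPM, that is counts scaled to a total of 1000000. Because reads per gene rise with transcript length, levels are given per kilobase (kb) of the longest protein-coding transcript, with other lengths and the undivided count as alternatives. On that scale the median of the members was 388 mean normalized counts per kb, against 57.1 over the 16954 genes with a value above 0 and a length, and 137 over the 12499 of these above the mark of 10. Per kb, 7 of the 8 members lay above the first of these medians and 6 above the second, and 2, Hmgcs1 and Fdps, were in the top 10% of genes above 0, where Fdps was at percentile 94.5. With the coding length Fdps was at percentile 89.8 and with the union of exons at 89.9, outside the top 10%.

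**Figure D1:**
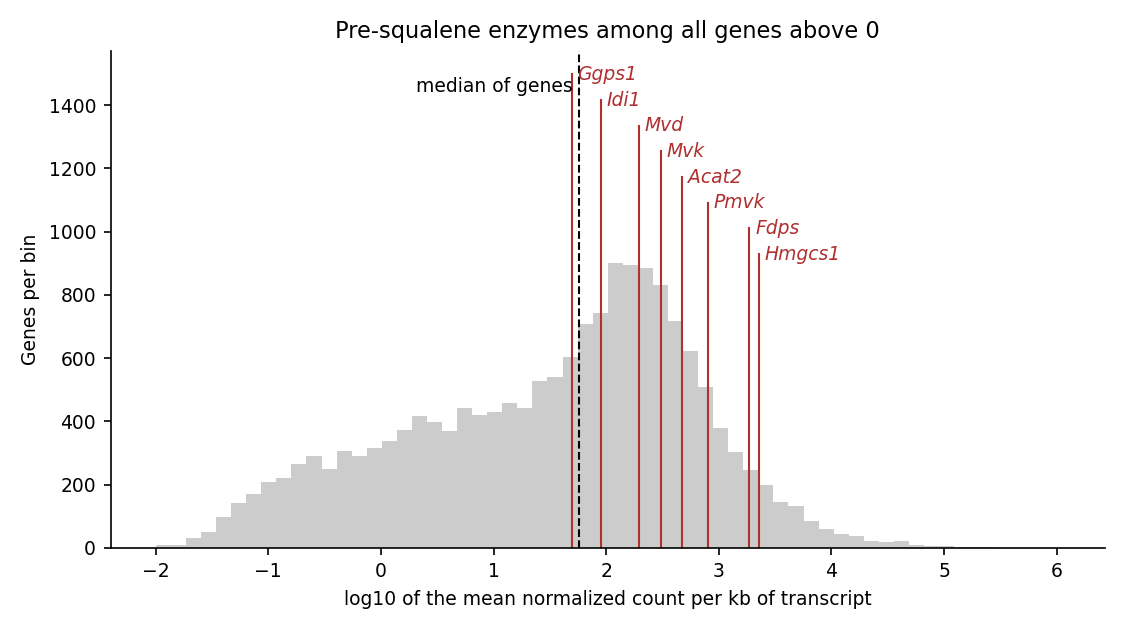
Histogram of the log10 mean normalized count per kb of transcript for the 16954 genes above 0 with a length (x axis), with the number of genes per bin on the y axis, the 8 pre-squalene enzymes as red lines of arbitrary height and the median of genes as a dashed line. Ggps1, at 49.4 per kb, is the only member to the left of the median of 57.1, and Hmgcs1 and Fdps lie in the right tail.

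The entry enzymes make acetoacetyl-CoA and HMG-CoA. Acat2, the cytosolic acetoacetyl-CoA thiolase, had a mean normalized count of 1059 (35.3 CPM) and 471 per kb, at percentile 82.9 of the genes above 0. It is a gene of 9 exons on the minus strand at chr17:12942890-12960747 (GRCm38, as for all genes below). Hmgcs1, the cytosolic HMG-CoA synthase, had a mean normalized count of 7932 (264 CPM) and 2290 per kb, at percentile 95.4. It has 11 exons on the plus strand at chr13:119690379-119708260 and was the highest of the 8 members, with 37.7% of their summed level per kb. The level of Hmgcs1 stood 4.86 times above that of Acat2 per kb.

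The kinases and the decarboxylase act on mevalonate in turn. Mvk, mevalonate kinase, had a mean normalized count of 507 (16.9 CPM) and 305 per kb, from 11 exons on the plus strand at chr5:114444269-114460591. Pmvk, phosphomevalonate kinase, had a mean normalized count of 950 (31.6 CPM) and 796 per kb, from 5 exons on the plus strand at chr3:89454541-89469013. Mvd, the decarboxylase that yields isopentenyl diphosphate, had a mean normalized count of 345 (11.5 CPM) and 196 per kb, from 10 exons on the minus strand at chr8:122433601-122443422. Pmvk was thus the highest of these 3, and their percentiles among the genes above 0 were 76.8 for Mvk, 88.8 for Pmvk and 69.3 for Mvd. Per kb the level of Mvk was 1.55 times that of Mvd, and 1.02 times when the union of all exons was used as length, so these neighbours in the order could not be set apart under every length.

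The last 3 enzymes rearrange and join isoprene units. Idi1, the isomerase between isopentenyl and dimethylallyl diphosphate, had a mean normalized count of 273 (9.10 CPM) and 90.3 per kb, from 5 exons on the plus strand at chr13:8885501-8892451. Fdps, which makes farnesyl diphosphate, had a mean normalized count of 2587 (86.1 CPM) and 1872 per kb, from 11 exons on the minus strand at chr3:89093588-89101959. Ggps1, which adds a further isoprene unit to make geranylgeranyl diphosphate, had a mean normalized count of 210 (6.98 CPM) and 49.4 per kb, from 4 exons on the minus strand at chr13:14050659-14063488. Both prenyl synthases therefore stood at opposite ends of this group, at percentile 94.5 for Fdps and 48.3 for Ggps1, with Idi1 at 56.4. Per kb the level of Fdps was 37.9 times that of Ggps1, and the ratio was 10.5 with the coding length, 13.8 with the union of exons and 12.3 without division by length.

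The order from high to low per kb was Hmgcs1, Fdps, Pmvk, Acat2, Mvk, Mvd, Idi1 and Ggps1. Hmgcs1, Fdps, Mvk and Ggps1 kept places 1, 2, 5 and 8 under all 4 scalings tried. Mvd and Idi1 exchanged places with the coding length, where Mvd was at 287 and Idi1 at 322 per kb, since much of the Idi1 transcript of 3027 bases lies outside its 849 coding bases. Pmvk and Acat2 exchanged places only when counts were not divided by length. The ratio of Hmgcs1 to Fdps was 1.22 per kb of transcript, 2.08 with the coding length, 2.81 with the union of exons and 3.07 without division by length. The ratio of Fdps to Pmvk, the next in order, was 2.35 per kb of transcript, 1.48 with the coding length, 1.11 with the union of exons and 2.72 without division. Fdps made up 30.8% of the summed level per kb of transcript, and 21.6%, 16.1% and 18.7% under these 3 alternatives in turn. The lowest member, Ggps1, made up 0.814%, and 2.05%, 1.17% and 1.51% under the alternatives.

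**Figure D2:**
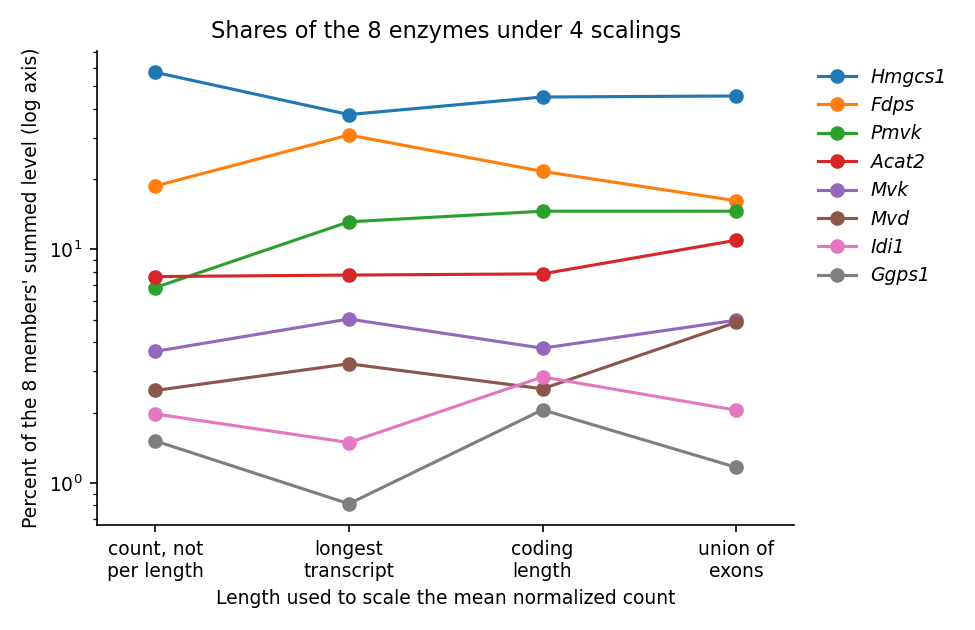
Share of each enzyme in the summed level of the 8 (percent, log axis) under 4 ways of scaling the mean normalized count (x axis), with 1 line per enzyme. The Hmgcs1 line is at the top and the Ggps1 line at the bottom throughout, the Mvd and Idi1 lines cross at the coding length, and the Pmvk and Acat2 lines cross where counts are not divided by length.

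Other genes of the pathway were taken from lists of known members. The 11 enzymes of sterol synthesis from squalene on that were analysed here were all above the mark, with a median of 893 per kb against 388 for the pre-squalene enzymes. They ranged from 256 for Lss, which closes the sterol ring, to 3235 for Msmo1, which oxidizes a methyl group of the sterol ring. When these 19 enzymes of both lists were put in 1 order per kb, Hmgcs1 was in place 3 and Fdps in place 5, Pmvk in place 9, Acat2 and Mvk in places 14 and 15, and Mvd, Idi1 and Ggps1 in places 17 to 19. The decarboxylase, the isomerase and the geranylgeranyl diphosphate synthase thus held the lowest 3 places per kb of transcript, but with the union of exons Lss, at 111 per kb, lay below Mvd, at 185.

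The 7 genes of the SREBP machinery were also all above the mark, with a median of 982 per kb. They ranged from 77.6 for Mbtps2, the site-2 protease, to 5544 for Insig2, which holds the SREBP complex in the endoplasmic reticulum. Srebf2, the SREBP best known for driving sterol genes, was at 323 per kb and Srebf1, better known for fatty acid genes, at 982. The list named users of isoprenoid diphosphates had a median of 256 per kb over 14 genes, all 14 above the mark. Among them Rce1, Icmt and Zmpste24 act on proteins that already carry an isoprenoid group, not on the diphosphates themselves. This list ran from 13.9 for Pggt1b, a subunit of the enzyme that attaches geranylgeranyl groups to proteins, to 1094 for Rabggtb, a subunit of the transferase for Rab proteins. That median was below the 388 of the pre-squalene enzymes per kb of transcript, and 226 against 303 with the union of exons. The direction turned with the coding length, at 665 for this list against 658, and without division by length, at 852 against 728 mean normalized counts. With the coding length Icmt was at 1509 and Zmpste24 at 1859 per kb, above the list's median, and Rce1 at 218, below it. The medians without these genes were not computed.

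Acat1 and Acat3, thiolase paralogs of Acat2, stood higher than Acat2 itself. Acat1, the mitochondrial acetoacetyl-CoA thiolase, was at 4889 per kb, 10.4 times Acat2, and Acat3, a close copy of Acat2, was at 1730 per kb, 3.67 times Acat2. Of the 5 genes analysed from the list of ketone body and thiolase paralogs, 4 were above the mark, with a median over the 5 of 4889 per kb, and Idi2, a paralog of Idi1, was listed at 0. Acaa2, also on that list, was the highest of it at 17122.5 per kb, 36.4 times Acat2. Acat2 and Acat3 were identical at 1164 of 1191 aligned coding bases (97.7%), Acat2 and Acat1 at 49.3%, and the prenyl synthases Fdps and Ggps1 at 41.5%.

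**Figure D3:**
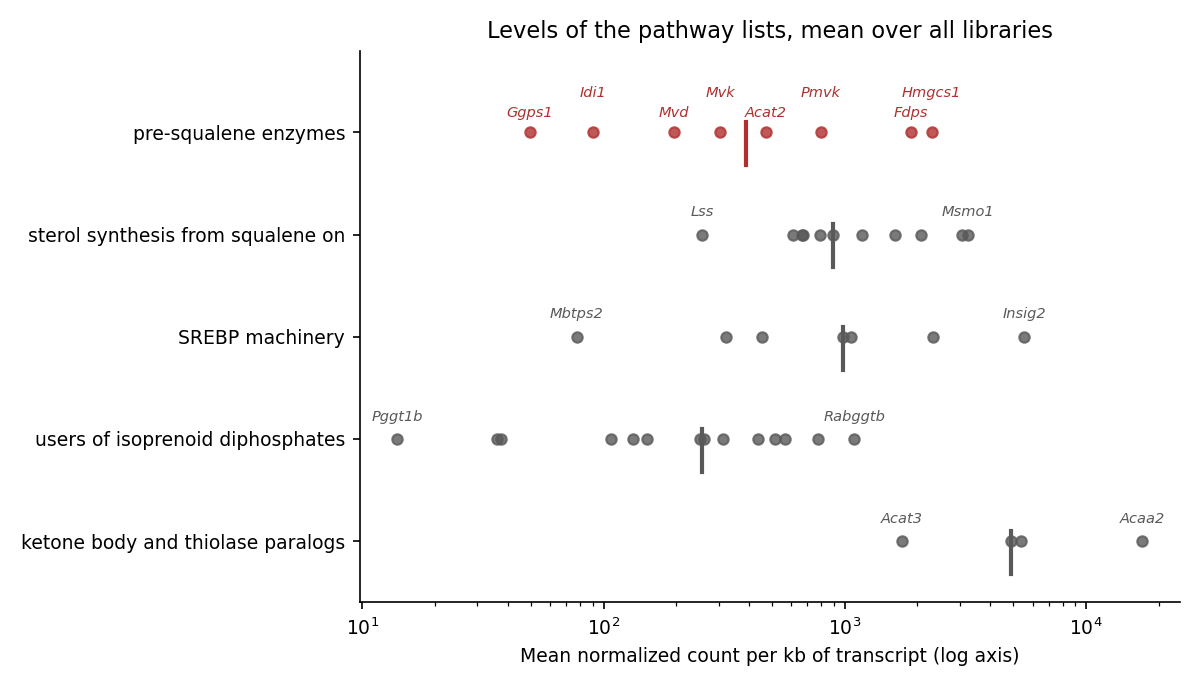
Mean normalized count per kb of transcript (x axis, log scale) for each gene of the 5 lists (rows), with 1 point per gene and a vertical bar at the list's median. The pre-squalene enzymes have a median of 388, below the 893 of the enzymes from squalene on, and the ketone body and thiolase paralogs have the highest median, 4889. Idi2, listed at 0, has no point but counts in its list's median.

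The tissue label was read against markers of the cells a liver sample can hold. All 6 hepatocyte markers were at or above percentile 99.5 per kb, and Alb was the highest gene of the table. The 6 Kupffer cell markers, between 79.6 and 1166 per kb, and the 6 endothelial markers, between 70.7 and 635, overlapped the range of the 8 enzymes. The 5 stellate cell markers ranged from 26.8 to 2366 per kb and were all above the mark, as were 4 of 5 cholangiocyte markers, which ranged from 3.37 to 64.9. Both neutrophil markers listed were above the mark, at 113 and 138 per kb, while Ly6g was not analysed here. Of the red cell markers Alas2 was at 1049 per kb and Hba-a1 and Hbb-bs were listed at 0. These 3 markers thus did not go together, and the reason for the values of 0 was not tested. Of the adrenal markers, checked because that gland also makes sterols, Cyp11b1 was listed at 0, Cyp11a1 had a mean normalized count of 0.335 and Star one of 39.2. The part of each cell type in the levels of the 8 enzymes was not tested, and in whole tissue fewer cells of a type and less RNA per cell cannot be told apart.

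How far a read of 75 bases can be assigned to each enzyme differed among the 8. Every 75-base window of each member's transcript was looked for in the transcripts of all other annotated genes, on both strands, with no mismatch allowed. Mvk, Pmvk and Mvd had 0 shared windows of 1586, 1120 and 1682, so each of their windows occurred in no other annotated gene. For Fdps, 1051 of 1308 windows (80.4%) were also found in another gene. Most of these, 74.9% of all windows, lay in Gm43738, a gene model on the same strand that shares 1124 exonic bases with Fdps, and 32.7% of windows were found at other loci, among them the processed pseudogene Gm3571 with 25.5%. None of the genes that share windows with Fdps is listed in the table used here.

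Acat2 differed from Fdps in that its shared windows lay in well expressed genes. Of 2176 windows 885 (40.7%) were also found in Acat3, which lies 2289 bases away on the same strand at chr17:12923813-12940600 and had a mean normalized count of 3709. Of these windows 240 were also found in Tcp1, a chaperonin subunit gene with a mean normalized count of 4326. The split of reads between Acat2 and Acat3 by the authors' counting is not given in the sources used here, so the value of Acat2 is uncertain. The Idi1 transcript shared 859 of 2953 windows (29.1%), with 20.7% of all windows in the processed pseudogene Gm13502 and none in a gene listed in the table. How reads that match several loci were counted is not given in the sources used here either. The values of Idi1 and of Fdps, with 32.7% of windows at other loci, are therefore uncertain as well.

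Hmgcs1 and Ggps1 both overlap an annotated gene on the other strand. For Hmgcs1, 414 of 3390 windows (12.2%) were found in Gm48342, an antisense gene that overlaps 557 of its exonic bases, and none at another locus. For Ggps1, 328 of 4170 windows (7.87%) were shared, 4.39% with Arid4b on the other strand, which had a mean normalized count of 685, and 3.48% with the processed pseudogene Gm5630. With windows of 50 bases the larger share for Ggps1 was with Gm5630, at 258 of 493 shared windows. Idi1 overlaps the gene model Gm48574 on the other strand over 323 exonic bases. Whether reads were counted by strand is not given in the sources used here, so reads of overlapping genes on opposite strands cannot be told apart for these 3 members.

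**Figure D4:**
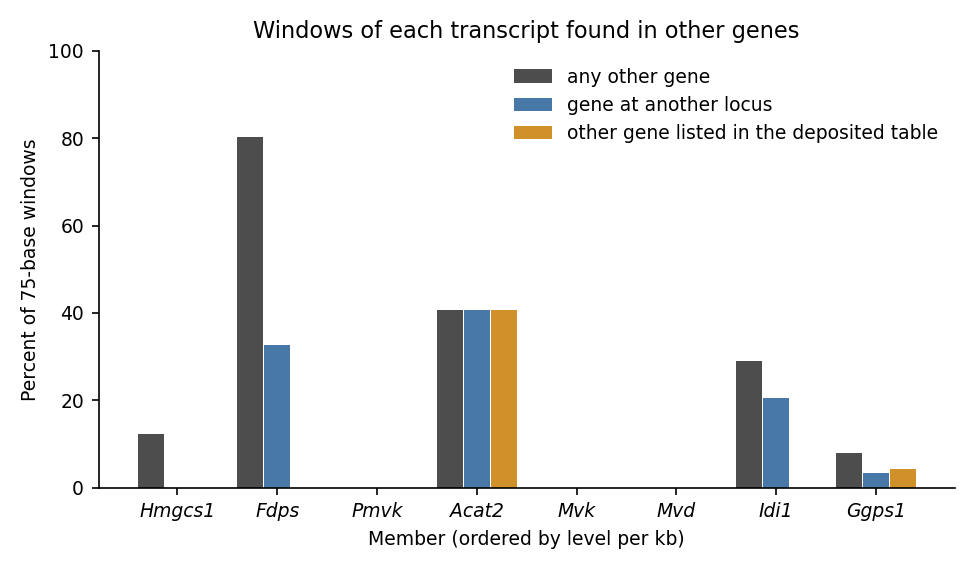
Percent of the 75-base windows of each transcript (y axis) that occur in any other annotated gene, in a gene at another locus, or in another gene listed in the table used here, for the 8 enzymes in order of their level per kb. Fdps has the highest bar at 80.4%, Acat2 alone shares a large part (40.7%) with listed genes, and Mvk, Pmvk and Mvd have no bar.

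The 8 genes lie on 5 chromosomes, with 3 on chromosome 13 and 2 on chromosome 3. The nearest pair, Fdps and Pmvk, is 352581 bases apart, and Idi1 and Ggps1 are 5158207 bases apart. RefSeq promoters of 300 bases, from 250 before to 50 after the annotated start, were found for 7 of the 8 genes, with 2 starts for Pmvk. None was found for Fdps. The RefSeq start of Idi1 lies 105 bases from the nearest start in GENCODE, the annotation used for the levels, and that of Hmgcs1 28 bases. All 250 bases before the Idi1 start lie in annotated exons, so its matches there are not in purely upstream sequence. Exons also cover 144 of these bases at the second start of Pmvk, 119 in Ggps1, 42 in Mvk and 22 in Acat2. The GC content of the promoters found ranged from 49.7% to 65.7%, against a median of 52.7% over all 32851 promoters of the table.

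The sterol regulatory element core TCACNCCAC was found in the promoter of 1 of the 7 genes, Hmgcs1, and in 408 of all 32851 promoters (1.24%). In Hmgcs1 it lies outside the last 150 of the 300 bases, where 0 of the 7 genes held it. That window ends 50 bases after the start, so more of it lies before the start than after. Its match begins at position -137, where negative positions count bases before the start, on the strand of the gene and reads TCACCCCAC, as marked above. The shorter form CACNCCAC, which the core contains, was found in Hmgcs1 and Acat2 and in 6.24% of all promoters. In Acat2 it begins at positions -181 and -53, on the gene strand and the opposite strand respectively. A match is a description of the letters and not evidence of binding. Lack of a match to these exact letters within the 300 bases does not show that a gene lacks the element.

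NF-Y motifs, CCAAT on either strand, were found in 6 of the 7 genes and in 37.4% of all promoters. Acat2 was the gene without a match. Mvk held 5 matches, Hmgcs1 4, Ggps1 3, Mvd and Idi1 2 each and Pmvk 1. The Sp1 motif GGGCGG was found in 5 of the 7 genes and in 35.7% of all promoters, but in 60.2% of the promoters of genes above the mark, to which all members belong. There were 3 matches in Hmgcs1, 2 in Mvk and 1 each in Mvd, Idi1 and Acat2. The E-box CACGTG was found in 0 of the 7 genes and in 7.15% of all promoters, or 9.74% of those of genes above the mark.

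**Figure D5:**
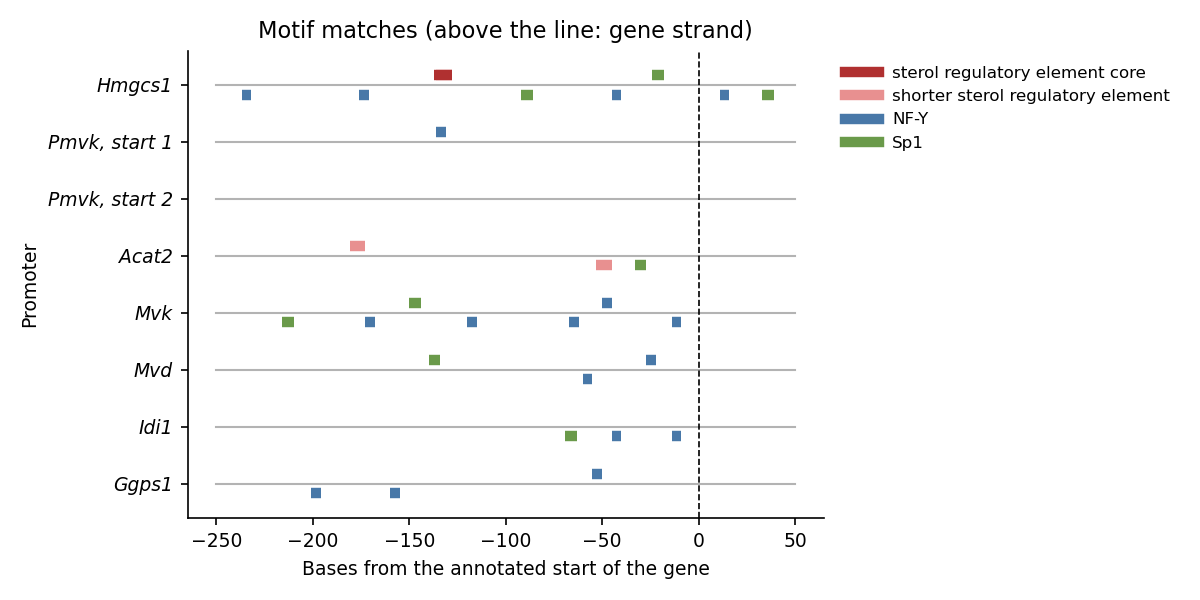
Positions of motif matches in the 8 annotated promoters of 7 genes (rows), as bases from the annotated start (x axis), with marks above the line on the strand of the gene and marks below it on the opposite strand. The sterol regulatory element core is present only in Hmgcs1, at position -137, and NF-Y matches are present in every gene shown except Acat2.

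Setting the motifs beside the levels, the highest member of the set, Hmgcs1, was the gene with the full core and the one with the most matches over all the motifs searched. Ggps1, the lowest, held 3 NF-Y matches and no match of either form of the sterol regulatory element or of Sp1. Pmvk, in place 3 at 796 per kb, also held no match of either form or of Sp1. Its NF-Y matches were fewer than those of Ggps1, with 1 at its first start and none at its second. Mvk, at 305 per kb, held more NF-Y matches than any other member with a promoter here. Fdps, the member in place 2, had no promoter to search. With 7 genes and pooled levels no relation between motifs and levels was computed.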

How the data were processed

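Hepatic mRNA libraries of 3 WT and 3 *Pai-1*+/- mice were prepared by the authors with a poly(A) mRNA kit from liver that the labels describe as frozen and the study's methods as kept in part in an RNA preservative, and sequenced as single-end reads of 75 bases. STAR was used by the authors for alignment to mm10, and DESeq2 for their genotype comparison. HOMER is also named in the submitters' processing notes, without a role. Software versions, the gene annotation and strand handling are not given in the sources used here.

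The signal used here is the authors' deposited average of size-factor-normalized counts across the libraries, with 1 value per gene and no value per mouse. The same deposited table holds log2 fold changes, standard errors, statistics, p-values and adjusted p-values of the authors' genotype comparison, and none of these was used. The deposited counts of single animals were left out as well, because their 6 columns match no sample label, so depth per library is not reported and the planned genotype test with edgeR was not run.

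Symbols were matched to GENCODE M21 on GRCm38 (mm10), which gave a length for 96.4% of genes above the mark of 10. Levels were divided by the length of the longest protein-coding transcript. Percentiles are over genes above 0. Exact windows of 75 bases were searched in all annotated transcripts, coding sequences were aligned globally with Biopython 1.88, and motifs were searched on both strands of RefSeq promoters. Python 3.11.15, NumPy 2.4.6, pandas 2.3.3 and Matplotlib 3.10.9 were used, and calculations were tested on simulated data. Genes named are the 8 members, members of the pathway and marker lists, and genes sharing exons or windows with a member, where those sharing windows were chosen after the search. The members and lists were chosen with earlier results of these data known. Protein sequences were not analysed here, and some genes of the pathway are not reported here.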

Additional observations from a re-analysis of the deposited data

How the results depend on the processing

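The ratio of the highest to the lowest of the 8 enzymes, 46.4 per kb of transcript, was 21.8 with the coding length, 38.9 with the union of exons and 37.8 without division by length. The number of members above the median of the genes ranked was 7 per kb of transcript, 6 among genes above the mark of 10 only, and 8 with the coding length, with the union of exons or without division by length. Matches were also counted only where they began in the last 150 of the 300 promoter bases, which end 50 bases after the start. The share of promoters was then 0.618% for the sterol regulatory element core, 3.23% for its shorter form, 23.4% for NF-Y, 28.8% for Sp1 and 4.35% for the E-box. In that window the member genes with a match numbered 0, 1, 5, 3 and 0 of 7 in the same order. In promoters of genes above the mark, the share was 60.2% for Sp1 and 9.74% for the E-box, and for the core (1.22%), the shorter form (6.49%) and NF-Y (37.4%) it stayed within the 95% interval of the main share. Windows of 50 in place of 75 bases gave shared shares of 86.4% for Fdps, 45.9% for Acat2, 30.5% for Idi1, 13.6% for Hmgcs1 and 11.8% for Ggps1, with Mvk, Pmvk and Mvd still at 0. The coding length, the union of exons and the 50-base windows were chosen after seeing the data. No paired analysis was possible because no column of values could be tied to a sample label, and for the same reason the other size factors, the other test, the fit without a filter and the fits without 1 library were not run. The depth of each library and the spread between mice are not reported here, which limits every level to a description.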
